A study of Homo sapiens with 5 samples.

Results

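Deposited ERG and p53 peaks were examined around 10 genes of pyrimidine and nucleotide synthesis, namely CAD, DHODH, UMPS, CTPS1, RRM1, RRM2, TYMS, DCK, TK1 and IMPDH1. A peak was counted for a gene when it overlapped the gene or the 50 kb on either side of it, in hg19. These 10 widened spans covered 1.24 Mb of the 3093 Mb of chromosomes over which peaks were spread. They held 21 of the 14337 peaks of ERG replicate 1, 15 of the 11237 peaks of ERG replicate 2, 1 of the 227 peaks of p53 replicate 1 and 0 of the 138 peaks of p53 replicate 2.

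Chromatin immunoprecipitation followed by sequencing (ChIP-seq) had been carried out on VCaP cells, an established line of human prostate cancer with a TMPRSS2-ERG fusion and mutant p53, grown without treatment. Because of the fusion, the ETS family transcription factor ERG is made under the control of an androgen-driven promoter. ERG was precipitated with the antibody ab92513 in 2 samples and p53 with sc-126 in 2 samples, and an input chromatin sample served as a control for which no peak list was used here. The study describes its replicates as biological, their labels name no separate cultures, and the p53 lists held far fewer peaks than the study's own account of p53, so that p53 values describe only what was deposited.

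Pyrimidine nucleotides are built from small precursors by the enzymes CAD, DHODH and UMPS, which together make UMP, and CTPS1 then converts UTP to CTP. Ribonucleotide reductase, formed by RRM1 and RRM2, turns ribonucleotides into the deoxyribonucleotides needed for DNA, and TYMS makes the thymidine nucleotide from its uridine counterpart. DCK and TK1 recover deoxynucleosides by adding a phosphate, and IMPDH1 acts in the synthesis of guanine nucleotides. ERG, like other ETS factors, recognises DNA with a GGAA core.

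The study measured ERG occupancy at UMPS, RRM1, RRM2 and TYMS with one primer pair per gene, and the amplified stretches are shown because they give the sequence that was probed at each gene. They were read from the GRCh38 reference by exact match of the primers, run 5′ to 3′ in the direction of the gene, and carry the GGAA core, or TTCC where it lies on the other strand, in capitals.
UMPS amplicon: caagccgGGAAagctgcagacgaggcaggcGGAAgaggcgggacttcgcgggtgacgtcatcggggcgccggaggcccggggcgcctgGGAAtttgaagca
RRM1 amplicon: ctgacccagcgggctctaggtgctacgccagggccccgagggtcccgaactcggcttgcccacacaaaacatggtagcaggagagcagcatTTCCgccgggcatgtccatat
RRM2 amplicon: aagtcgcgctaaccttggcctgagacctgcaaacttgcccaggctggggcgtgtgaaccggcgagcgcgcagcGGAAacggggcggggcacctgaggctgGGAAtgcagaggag
TYMS amplicon: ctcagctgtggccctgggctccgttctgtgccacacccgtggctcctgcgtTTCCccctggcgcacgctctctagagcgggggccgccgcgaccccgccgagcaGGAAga

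The UMPS amplicon reached from 99 bp upstream of the RefSeq start to 1 bp past it (chr3:124730353-124730453, GRCh38) and held 3 GGAA cores. The RRM1 amplicon lay 140 to 29 bp upstream of the start (chr11:4094545-4094656) with 1 core. The TYMS amplicon lay 168 to 59 bp upstream (chr18:657485-657594) with 2 cores. At RRM2 the amplicon lay farther out, 2506 to 2393 bp upstream of the start (chr2:10120233-10120346), with 2 cores. RRM2 had 2 starts in the RefSeq promoter table, and the distance was taken from the first one listed. None of the amplicons held the longer form CCGGAA on either strand. These positions are GRCh38 and those of the peaks are hg19, and none was converted, so the amplicons and the peaks are set side by side by their distance from a start site. The study turned to ChIP-qPCR after reading ERG occupancy at these genes from ChIP-seq in VCaP cells. Amplicons and peaks are therefore not independent of each other.

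DCK and IMPDH1 had ERG peaks close to their start sites and no ERG primers, and the 250 bases upstream of their RefSeq starts (GRCh38.p14) are shown with the same marking, at chr4:70993399-70993648 on the plus strand and chr7:128409983-128410232 on the minus strand.
DCK upstream: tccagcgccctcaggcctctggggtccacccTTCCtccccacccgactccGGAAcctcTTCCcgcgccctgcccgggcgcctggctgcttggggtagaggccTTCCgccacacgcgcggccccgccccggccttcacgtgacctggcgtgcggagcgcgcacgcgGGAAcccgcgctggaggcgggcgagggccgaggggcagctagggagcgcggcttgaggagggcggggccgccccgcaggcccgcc
IMPDH1 upstream: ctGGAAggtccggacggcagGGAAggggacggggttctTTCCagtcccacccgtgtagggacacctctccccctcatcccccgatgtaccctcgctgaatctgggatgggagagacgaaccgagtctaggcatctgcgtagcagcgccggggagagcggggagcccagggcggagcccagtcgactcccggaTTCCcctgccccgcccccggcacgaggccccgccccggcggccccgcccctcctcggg

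DCK carried 5 GGAA cores in this stretch and IMPDH1 carried 4. All 10 genes were matched in the RefSeq promoter table, and GGAA on either strand was found upstream of 10 of 10, with 2 cores at CTPS1, 8 at TYMS and a median of 4. RRM2, TK1 and CTPS1 each had 2 promoters in the table, and only the first one listed was read. The core is short and frequent, being present in 92.7% of the 35116 promoters of the table, where the median was 3. CCGGAA was present at 2 of the 10 genes, RRM2 and DCK, and in 14.5% of all promoters. These letter counts describe the reference sequence and not the peaks.

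ERG peaks lay near nearly all of these genes. A shared ERG region, meaning merged overlapping peaks with a peak of each replicate, lay within 50 kb of 9 of the 10 genes, where 24.6% of all genome stretches of the median widened length of 118.5 kb held one. UMPS was the exception. In each replicate taken alone the same 9 genes had a peak, against 33.4% of such stretches in replicate 1 and 28% in replicate 2. DCK, IMPDH1, RRM1 and TYMS had a shared region within 1 kb of the start site, where 0.739% of all 2 kb stretches of the genome held a shared region. In replicate 1 alone, 3 genes had a peak that close (DCK, RRM1 and TYMS; 1.09% of stretches), and in replicate 2 alone all 4 had one (0.833%). Stretches of the genome are not genes and include gaps and gene-poor sequence, so these background values describe the genome at large and not other genes. UMPS, RRM1, RRM2 and TYMS were taken up by the study as ERG targets, with occupancy reported from ChIP-seq in VCaP cells. Their place among the genes is therefore not independent of ERG peaks. RRM2 was added within 2 kb and CAD within 5 kb, and no further gene was added within 10 kb. No background share was computed for these larger distances, and the 0.739% belongs to the 1 kb distance alone. Start sites were known to the nearest kb, so genes with peaks under 1 kb from the start cannot be ranked among themselves, and the side of the start on which such a peak lay is not resolved.

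**Figure D1:**
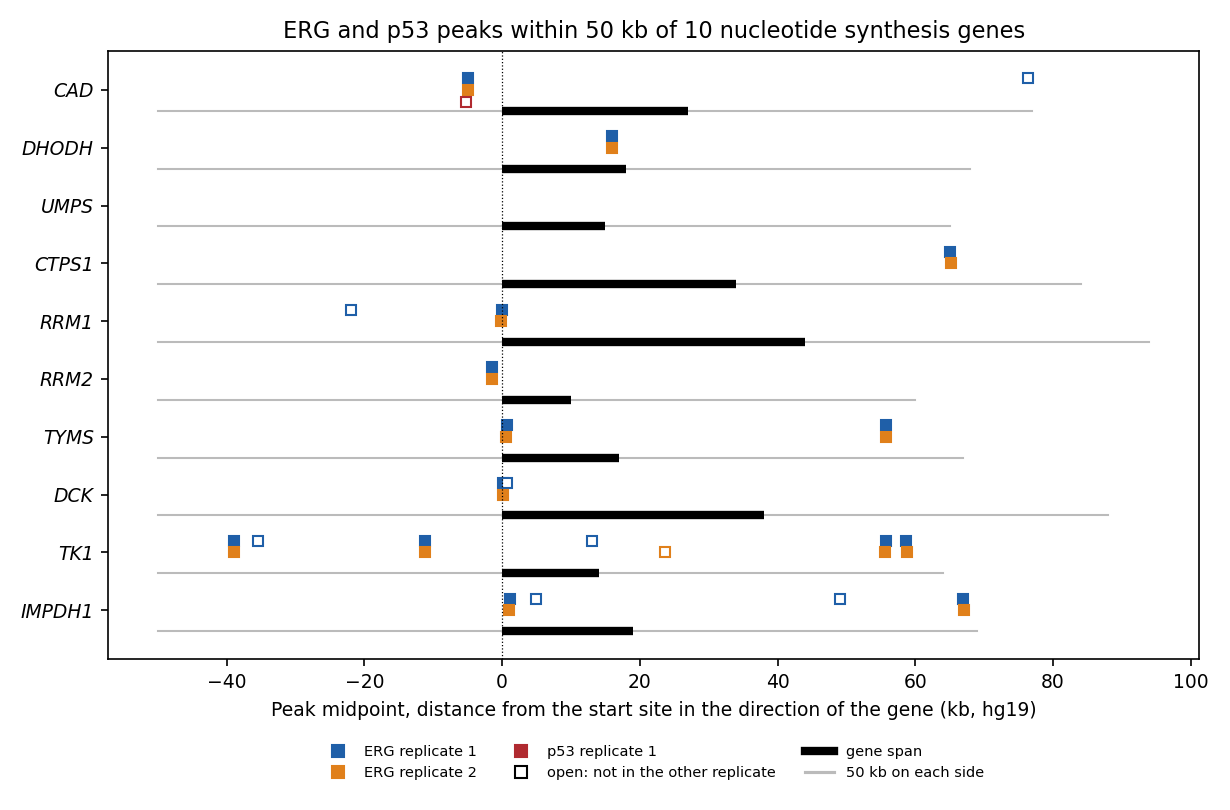
Peaks of ERG replicate 1, ERG replicate 2 and p53 replicate 1 around each gene, with the midpoint's distance from the start site in kb on the x axis and the genes as rows; black bars are gene spans, grey lines the 50 kb on each side, and open squares peaks without a partner in the other replicate. UMPS has no peak, TK1 has the most, and the one p53 peak lies upstream of CAD beside ERG peaks of both replicates.

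The widened spans held 17.0 peaks per Mb in ERG replicate 1 against 4.64 per Mb over the whole list, and 12.1 against 3.63 per Mb in replicate 2. At the density of its list, a span of this length would hold 5.73 peaks in replicate 1 and 4.49 in replicate 2. Shared regions numbered 14, or 11.3 per Mb against 3.03 per Mb overall. TK1 alone held 28.6% of them, and without TK1 the density was 8.91 per Mb. The values over whole lists include gaps and gene-poor sequence, whereas every widened span holds at least its own gene. No density was computed around other genes, so the excess does not set these genes apart from genes in general. No variance between samples can be estimated from 2 peak lists, and the densities are given without a test.

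CAD, the enzyme that carries out the opening steps of pyrimidine synthesis, was the one gene with peaks of both factors within 50 kb. Its shared ERG region, chr2:27434712-27435262 (hg19, as are all peak positions), lay 4.74 kb upstream of the start site, with a peak of 551 bp in replicate 1 and 508 bp in replicate 2. Both peaks were wide for their lists, being wider than 83.1% of all peaks in replicate 1 and 85.8% in replicate 2, and they overlapped by 508 bp. The peak of p53 replicate 1, chr2:27434591-27434978, was 388 bp wide, wider than 88.1% of that list, and overlapped the ERG region with its midpoint 5.22 kb upstream of the start. The nearest peak of p53 replicate 2 lay 62.4 Mb away, so the p53 peak at CAD was called in 1 of 2 samples. SLC5A6 and ATRAID lie on the upstream side of CAD within 50 kb in the GRCh38 gene order. The ERG region and the p53 peak were thus not near CAD alone. A narrow ERG peak of 232 bp in replicate 1 alone lay 49.2 kb past the other end of CAD, just inside the 50 kb limit.

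p53 peaks near these genes were few, as the lists were short. A p53 peak of either replicate lay within 50 kb of 1 of the 10 genes, and 1.04% of all stretches of the median length held one. By sample it was 1 gene in replicate 1 (0.77% of stretches) and 0 in replicate 2 (0.383%). At the density of its list, a span of the summed length would hold 0.0907 peaks in p53 replicate 1 and 0.0552 in replicate 2. Overlap with ERG was common among p53 peaks in general, since 44.1% of the peaks of p53 replicate 1 overlapped a shared ERG region. Of the same p53 replicate 1 peaks, 16.3% overlapped a peak of p53 replicate 2, and 1.41% of shared ERG regions overlapped a p53 peak. These shares are not comparable, as there were 9366 shared ERG regions but 138 peaks of p53 replicate 2. For the other 9 genes the nearest p53 peak of either list lay between 0.389 Mb from the start (TK1) and 5.47 Mb (RRM2), with a median of 1.66 Mb. TYMS was the gene at which the p53 samples gave the same distance, 0.549 Mb upstream in both. No p53 region lay within 500 kb of the start of 8 of the 10 genes. The share of all 1 Mb stretches without one was not computed. Such peaks were sparse throughout, at 0.0734 per Mb over all in replicate 1 and 0.0446 in replicate 2, so this count does not set the genes apart.

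**Figure D2:**
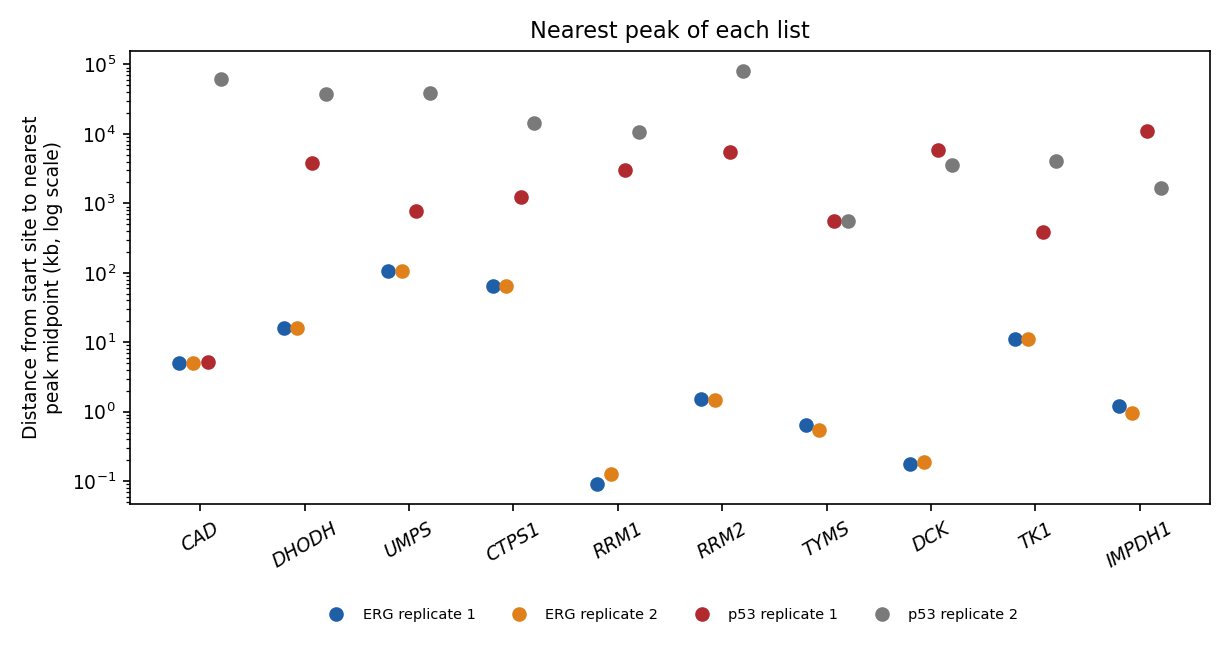
Distance in kb, on a log scale, from each gene's start site to the midpoint of the nearest peak in each of the 4 lists. The ERG replicates lie close together at every gene, from under 0.2 kb at RRM1 and DCK to over 100 kb at UMPS, and the p53 points lie far above them at all genes other than CAD in replicate 1.

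DHODH, the mitochondrial enzyme that makes orotate, had a shared ERG region inside the gene and far from its start. The region, chr16:72057810-72058095, began 15.81 kb downstream of the start site in a gene of 18 kb. Its peaks were narrow, with 286 bp in replicate 1 and 225 bp in replicate 2, and were wider than 29.4% and 18.7% of their lists. A second shared region lay outside the limit, 67.4 kb past the end of the gene.

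UMPS, which converts orotate to UMP, had no peak of any of the 4 lists within 50 kb. The nearest peak of ERG replicate 1, chr3:124554276-124554596, lay 105 kb downstream of the start site, and that of replicate 2, chr3:124556564-124556821, lay 108 kb downstream. The nearest shared region was 92.6 kb past the end of the gene, and 2 peaks of replicate 1 alone lay 90.3 kb and 91.9 kb past it. The surroundings were not poor in ERG peaks, with 7 shared regions within 500 kb of the start, more than in 85.4% of all 1 Mb stretches of the genome. The study itself reports ERG occupancy at UMPS in VCaP cells, by ChIP-seq and by ChIP-qPCR. The absence of a peak from the deposited lists therefore differs from the study's account, and it rests on reading the positions as hg19. Read as GRCh38, the 4 lists would have 304 peaks past the chromosome ends, and ERG peaks of both replicates would lie within 2 kb of the UMPS start, 707 bp and 728 bp from the amplified stretch and not on it. A peak that was not called at the threshold of the deposited lists does not show that ERG was absent, since the lists hold no signal below it.

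CTPS1, which makes CTP from UTP, had a single shared region, chr1:41509808-41510287, at 30.8 kb past the end of the gene and 64.81 kb from the start. The peaks were 432 bp wide in replicate 1 and 322 bp in replicate 2 and overlapped by 274 bp. In the order of genes on GRCh38, SLFNL1 and SCMH1 follow CTPS1 within 50 kb of its end, so the region was not near CTPS1 alone.

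RRM1, the large subunit of ribonucleotide reductase, had a shared ERG region at its start site. The region, chr11:4115713-4116080, reached across the start as known to the nearest kb, with a peak of 346 bp centred 92.5 bp upstream in replicate 1 and a peak of 317 bp centred 129 bp upstream in replicate 2. Both widths were close to the middle of their lists, wider than 48.3% and 53.2% of the peaks. A further peak of 232 bp, in replicate 1 alone, lay 21.8 kb upstream, the side on which STIM1 lies within 50 kb in the GRCh38 gene order. RRM1 had 2 shared regions within 500 kb, the median of all 1 Mb stretches, and was the one gene of the 10 that did not exceed this median.

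RRM2, the small subunit of the same enzyme, had its shared region upstream of the start and not across it. The region, chr2:10260299-10260699, ended 1.30 kb upstream of the start, with a peak of 329 bp in replicate 1 and 384 bp in replicate 2 that overlapped by 312 bp. The next shared region lay 77.7 kb upstream, outside the limit. The RRM2 amplicon too was placed upstream, 2.4 kb from the RefSeq start used, whereas the RRM1 and TYMS amplicons lay within 0.2 kb of theirs. As the study's ChIP-qPCR followed its ChIP-seq in the same cells, this placement is not independent of the peaks.

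TYMS, which makes dTMP and is the target of fluorouracil, had a shared region within 1 kb of its start and another beyond its end. The first, chr18:657436-657821, had a peak of 333 bp in replicate 1 and a peak of 205 bp in replicate 2, centred 655 bp and 538 bp from the start as rounded to the kb, so whether the region lay across the start or inside the gene is not resolved. TYMS was the 1 gene whose start carries the same number to 1 kb in both builds, and the GRCh38 numbers of its amplicon fall within those of this region. Here too the amplicon is not independent of the study's ChIP-seq. These peaks overlapped by 152 bp, less than 50% of the wider one, and the replicate 2 peak was wider than 9.51% of its list. The second region, chr18:712663-712908, lay 38.7 kb past the end of the gene with peaks of 223 bp and 206 bp, both among the narrowest 10% of their lists. ENOSF1 and YES1 follow TYMS within 50 kb of its end in the order of genes on GRCh38.

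**Figure D3:**
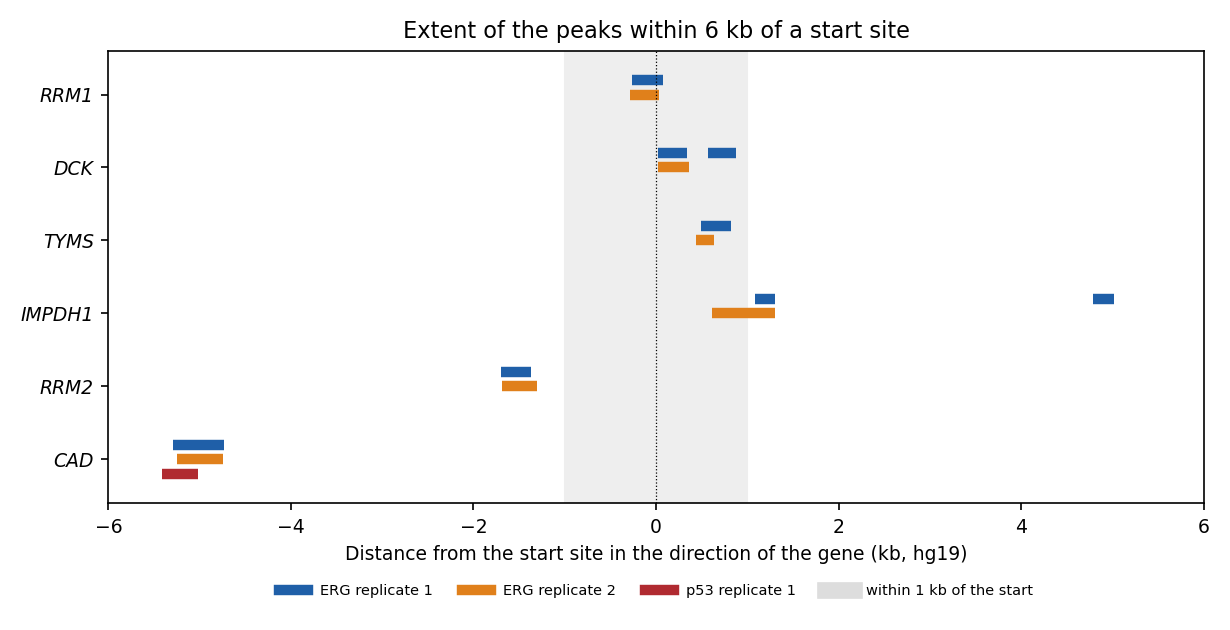
Extent of each peak within 6 kb of a start site for the 6 genes that had one, with the distance from the start in kb on the x axis and one bar per peak and list; grey marks the 1 kb on either side of the start, the precision to which starts are known. Peaks of both ERG replicates lie across or beside the start at RRM1, DCK, TYMS and IMPDH1, and upstream at RRM2 and CAD, where the p53 peak overlaps them.

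DCK, the kinase that phosphorylates deoxycytidine and activates drugs such as gemcitabine, had an ERG region at its start. The shared region, chr4:71859018-71859358, began 18 bp from the start as rounded to the kb, with a peak of 317 bp in replicate 1 and 340 bp in replicate 2 whose midpoints were 12.5 bp apart. A second peak of 303 bp, centred 724 bp from the rounded start, was called in replicate 1 alone. The next shared region was 90.7 kb upstream.

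TK1, the thymidine kinase made in dividing cells, had the most ERG peaks of the 10 genes, 6 in replicate 1 and 5 in replicate 2, and none of them at its start. Its 4 shared regions lay 11.1 kb upstream (chr17:76195098-76195441), 38.7 kb upstream (chr17:76222712-76223235), and 41.4 kb and 44.6 kb past the end of the gene (chr17:76128111-76128601 and chr17:76124968-76125404). The one region inside the gene, chr17:76170697-76171250, was 554 bp wide, wider than 83.4% of the replicate 1 list, and had no partner in replicate 2. A peak of 196 bp, 9.5 kb past the end, was the one peak near any of the genes found in replicate 2 alone. The window is dense in genes: AFMID, BIRC5 and TMEM235 lie on its upstream side and TMC6, TMC8, C17orf99 and SYNGR2 on its downstream side in the GRCh38 gene order.

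IMPDH1, which catalyses the rate-limiting step of guanine nucleotide synthesis, had a shared region at the start on which the replicates differed in extent. The region was chr7:128049695-128050391. In replicate 1 the peak was 218 bp wide, wider than 1.44% of the list, and was centred 1191.5 bp from the start as rounded to the kb. In replicate 2 it was 697 bp wide, wider than 96.0% of the list, and was centred 957 bp from the rounded start. The narrow peak lay inside the wide one, and the midpoints were 234.5 bp apart, the largest shift among the 14 shared regions. A second shared region, chr7:127983820-127984183, lay 47.8 kb past the end of the gene, just inside the limit, and replicate 1 alone had peaks 4.79 kb downstream of the start and 29.8 kb past the end. RBM28 and PRRT4 lie on the downstream side of IMPDH1 within 50 kb in the GRCh38 gene order. The second shared region was thus not near IMPDH1 alone.

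The genes differed in where their ERG regions lay. Of the 14 shared regions, 4 were upstream, 5 in the gene or at its start and 5 downstream, and the 8 regions of one replicate fell as 2, 3 and 3. The 4 genes with ERG primers, UMPS, RRM1, RRM2 and TYMS, had 4 shared regions in 486 kb, with 3 genes having one and 2 having one within 1 kb of the start. DCK, TK1 and IMPDH1 had 7 shared regions in 371 kb, with 3 genes having one and 2 having one within 1 kb. Of these 7 regions, 4 lay at TK1, whose window is dense in other genes. CAD, DHODH and CTPS1 had 3 shared regions in 379 kb, 1 at each gene and 0 within 1 kb. These are 3 or 4 genes per group, which were not treated as replicates, and no difference between the groups was tested.

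Most genes had more shared ERG regions within 500 kb of the start than the median 1 Mb stretch. These counts include the regions within 50 kb described above. Within 500 kb of the start, the number of shared regions ranged from 2 at RRM1 and 3 at DHODH to 8 at TK1 and 11 at CAD, and the median of the 3106 stretches of 1 Mb in the genome was 2. CAD exceeded 95.1% and TK1 89.4% of these stretches, whereas DHODH exceeded 58.4% and CTPS1, with 4, exceeded 68.4%. In all, 9 of 10 genes lay above the median stretch, whereas 58.4% of all stretches held fewer than 3 regions and so did not. Of the 3106 stretches, 919 held none, and the same count was not made around other genes.

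Recurrence of the ERG peaks near the genes was set against that of their lists. In replicate 1, 14 of 21 peaks (66.7%, 95% Wilson interval 45.4% to 82.8%) overlapped a replicate 2 peak, against 65.4% of the whole list. In replicate 2, 14 of 15 (93.3%, 70.2% to 98.8%) overlapped a replicate 1 peak, against 84.2% of the list. Both intervals, which cover counting error only, contained the value of the list. Where a region was shared, the midpoints of its peaks were 10 to 234.5 bp apart, with a median of 34 bp.

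Peak width is the one property besides position that the lists give. Near the genes the median width was 317 bp in replicate 1 and 322 bp in replicate 2, against 351 bp and 306 bp over the lists. In replicate 1 the widths ranged from 218 bp to 554 bp, and 7 of 21 were above the list's median. In replicate 2 they ranged from 196 bp to 697 bp, and 9 of 15 were above it. The 14 recurring peaks of replicate 1 had a median of 331 bp and the 7 others one of 235 bp. Peaks above the median of their list in both replicates were found at CAD, at CTPS1 and 41.4 kb past the end of TK1, and at no start site. Neither this finding nor the split by recurrence was computed over the whole lists, so neither sets these genes apart.

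**Figure D4:**
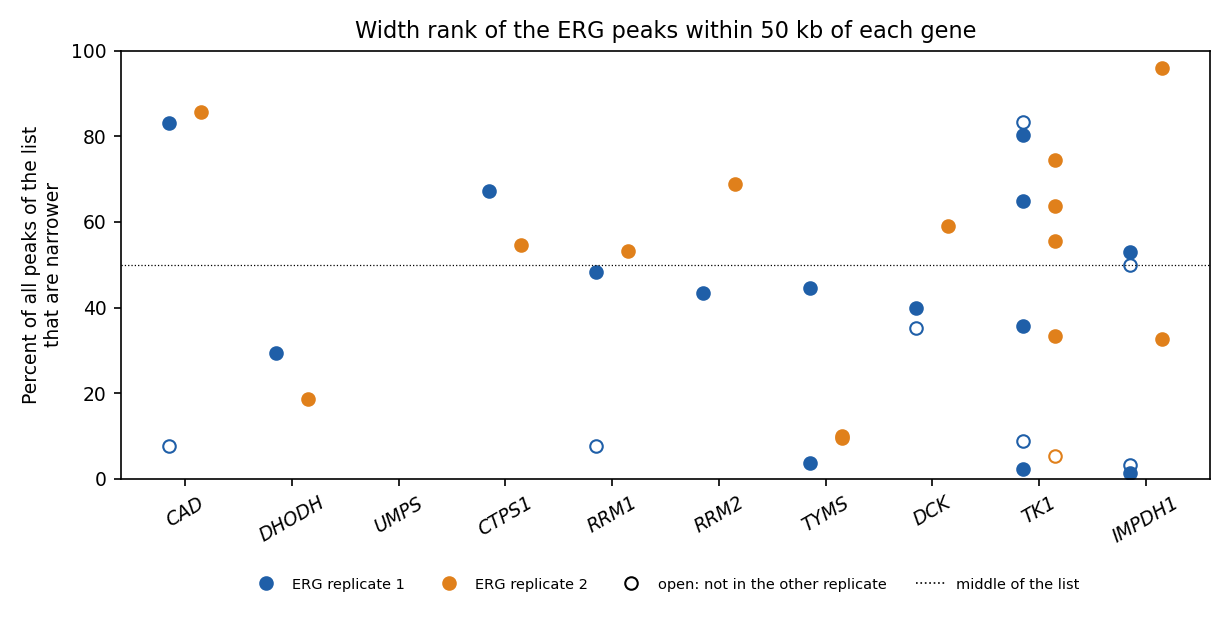
Width of each ERG peak near each gene, as the percent of all peaks of the same list that are narrower, with one point per peak, replicates by colour and open points for peaks without a partner in the other replicate. The shared region upstream of CAD lies high in both replicates, and DHODH lies low in both. The other CAD peak, in replicate 1 alone, lies low at 7.58%. The IMPDH1 start region lies at opposite ends, at 1.44% in replicate 1 and 96.0% in replicate 2.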

How the data were processed

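The 10 genes, the windows and the comparisons were chosen with earlier results of these data known. Per the submitters' processing notes, CASAVA 1.4, Bowtie2 2.3.3.1 and MACS2 were used with hg19, and the authors called peaks on each sample without pooling. The study's methods name both builds. In the deposited lists 304 peaks on 15 chromosomes ended past the GRCh38 chromosome ends, so positions were read as hg19 and none was converted. Gene spans were taken in hg19 to the nearest kb, which sets the precision of every start site, and strand, gene order, promoters and amplicons came from GRCh38. Other genes of the pathway were not analysed here.

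Each of the 4 deposited lists holds chromosome, start, end and name, and the authors gave no score, fold enrichment, p-value or read depth there. Read depth, which the study states in its supplementary material, was not used here. Peaks that overlapped by 1 bp or more formed a region, called shared if both replicates contributed. The background was the share of consecutive genome stretches of the same length holding such a region. The shares of recurring peaks carry 95% Wilson intervals. No test was run. All 10 genes were named, with each shared or intragenic region. Scripts were tested on simulated data. Alternatives were other windows, a reciprocal overlap of 50%, wide peaks and single replicates. Python 3.11.15, numpy 2.4.6, scipy 1.17.1 and matplotlib 3.10.9 were used.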

Additional observations from a re-analysis of the deposited data

How the results depend on the processing

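The number of genes with a shared ERG region, 9 within 50 kb, was 5 in the gene spans alone and 3 when only peaks at or above the median width of their list were used, and it stayed within 1.5 times, at 7 to 10, with windows of 10 kb and 100 kb, with a reciprocal overlap of 50% and with single replicates. The number with one within 1 kb of the start, 4, was 2 with the reciprocal overlap, which dropped TYMS and IMPDH1, and 0 with wide peaks alone. It was 5 within 2 kb and 6 within 5 kb, 3 to 4 with either replicate alone, and 3 with the start sites moved by 1 kb to either side, a choice made after seeing the data. Peaks near the genes fell from 21 to 10 in ERG replicate 1 and from 15 to 8 in replicate 2 with a 10 kb window, and to 7 and 9 with wide peaks alone. The 1 gene with a p53 peak became 2 within 500 kb. Without p53 replicate 1 it became 0, and so did the 1 gene with overlapping p53 and ERG peaks, while without p53 replicate 2 both stayed at 1. Background shares were not recomputed for wide peaks, for the reciprocal overlap or for distances other than 50 kb and 1 kb. No paired analysis was possible because the lists hold positions only and no model was fitted. Thresholds on fold enrichment or p-value could not be varied, because the lists hold neither.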
